A study of Mus musculus with 6 samples.

Results

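The Hox genes are the 39 protein-coding genes of the RefSeq table for GRCm38 named Hoxa, Hoxb, Hoxc or Hoxd with a number, out of 21900 protein-coding genes with a position. They lie in 4 clusters: HoxA on chromosome 6 (11 genes), HoxB on chromosome 11 (10 genes, 96194316 to 96368254), HoxC on chromosome 15 (9 genes, 102921131 to 103036856) and HoxD on chromosome 2 (9 genes, 74668225 to 74765142). No other protein-coding gene of the table lies inside the clusters. Binding of the transcription factor E2F1 was measured by chromatin immunoprecipitation and sequencing (ChIP-seq) in NIH/3T3, a long-established cell line derived from fibroblasts of mouse embryos. Cells with a stably integrated, doxycycline-inducible E2F1 construct (2 libraries) were compared with cells that carried an inducible empty vector, EV (2 libraries). Both kinds of cell had been starved of serum for 48 hours and then given doxycycline for 12 hours, so starvation and drug were shared by the groups, and the study asked how E2F1 takes cells out of a resting state. The labels do not say whether a line is 1 clone or a pool, nor whether replicates came from separate cultures. Peak lists hold no expression values, so neither the fibroblast identity of the cells nor the expression of any Hox gene could be checked.

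Hox genes encode homeodomain transcription factors that give cells their position along the body axis. Within a cluster the genes are ordered from paralogue group 1, active towards the head, to group 13, active towards the tail and at the ends of the limbs. The clusters are held silent by Polycomb proteins where they are not in use, and are opened by Trithorax proteins and by retinoic acid. E2F1 binds DNA together with a DP partner, prefers the promoters of genes for DNA replication and the cell cycle, and is best known for driving entry into S phase.

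The E2F1 libraries listed 7836 and 8027 peaks in all, against 70 and 358 in the EV libraries. A gene counts here as having a peak when a listed peak touches the gene or the 1000 bp on either side of it by at least 1 bp. By that rule 8085 protein-coding genes (36.9%) had a peak in E2F1 replicate 1, 8364 (38.2%) in E2F1 replicate 2 and 7537 (34.4%) in both. In the EV libraries 8 genes (0.0365%) and 89 genes (0.406%) had one, and 2 (0.00913%) had one in both. The lists hold only peaks with a −log10 p-value above 10, so a gene without a peak is not a gene without binding.

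Of the 39 Hox genes, 7 had a peak in both E2F1 libraries, with Hoxa2, Hoxa3, Hoxa4, Hoxa5, Hoxa6 and Hoxd8 among them. That is 17.9% of the Hox genes, beside 34.4% of all protein-coding genes. Most Hox genes are short. Among genes of at most 10000 bp the shares were alike, with 6 of 33 Hox genes (18.2%) and 1623 of 7939 protein-coding genes (20.4%). Among longer genes it was 1 of 6 Hox genes (16.7%), beside 42.4% of protein-coding genes. Hoxa7 and Hoxc4 had a peak in E2F1 replicate 1 alone, and Hoxc6 in replicate 2 alone. The other 29 had none in either E2F1 library, among them all 10 genes of HoxB, the 7 HoxC genes other than Hoxc4 and Hoxc6, and the 8 HoxD genes other than Hoxd8. In the EV libraries no Hox gene had a peak, which at background shares of 0.0365% and 0.406% says little about Hox genes.

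None of the 16 genes of the posterior groups 9 to 13 had a peak in any library. All but 1 of them are at most 10000 bp long, where the share with a peak in both E2F1 libraries was 20.4% over all genes. Most of them lie in HoxB, HoxC and HoxD, where Hoxd8 alone had a peak in both E2F1 libraries. Position and cluster are not separated here, and the position in the cluster was not tested. These posterior genes, among them Hoxa13 and Hoxd13 with their role in digits and Hoxc10 and Hoxd10 in the hind part of the trunk, were from 4320 bp (Hoxd9, E2F1 replicate 2) to 205827 bp (Hoxb9, E2F1 replicate 1) away from the nearest E2F1 peak. Counts of members are described here without a test. Between the first and the last gene of the clusters, 492.1 kb in all, E2F1 replicate 1 listed 10 peaks and replicate 2 listed 9, and the EV libraries 0 and 0. The mean was 9.5 ± 0.71 peaks (SD, n = 2) for E2F1 and 0 for EV. The groups did not overlap, and neither did the whole lists, 7836 and 8027 peaks against 70 and 358. An exact permutation test over the 4 libraries, two-sided, returned p = 0.333, and no lower p can be reached with 2 libraries a group.

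**Figure D1:**
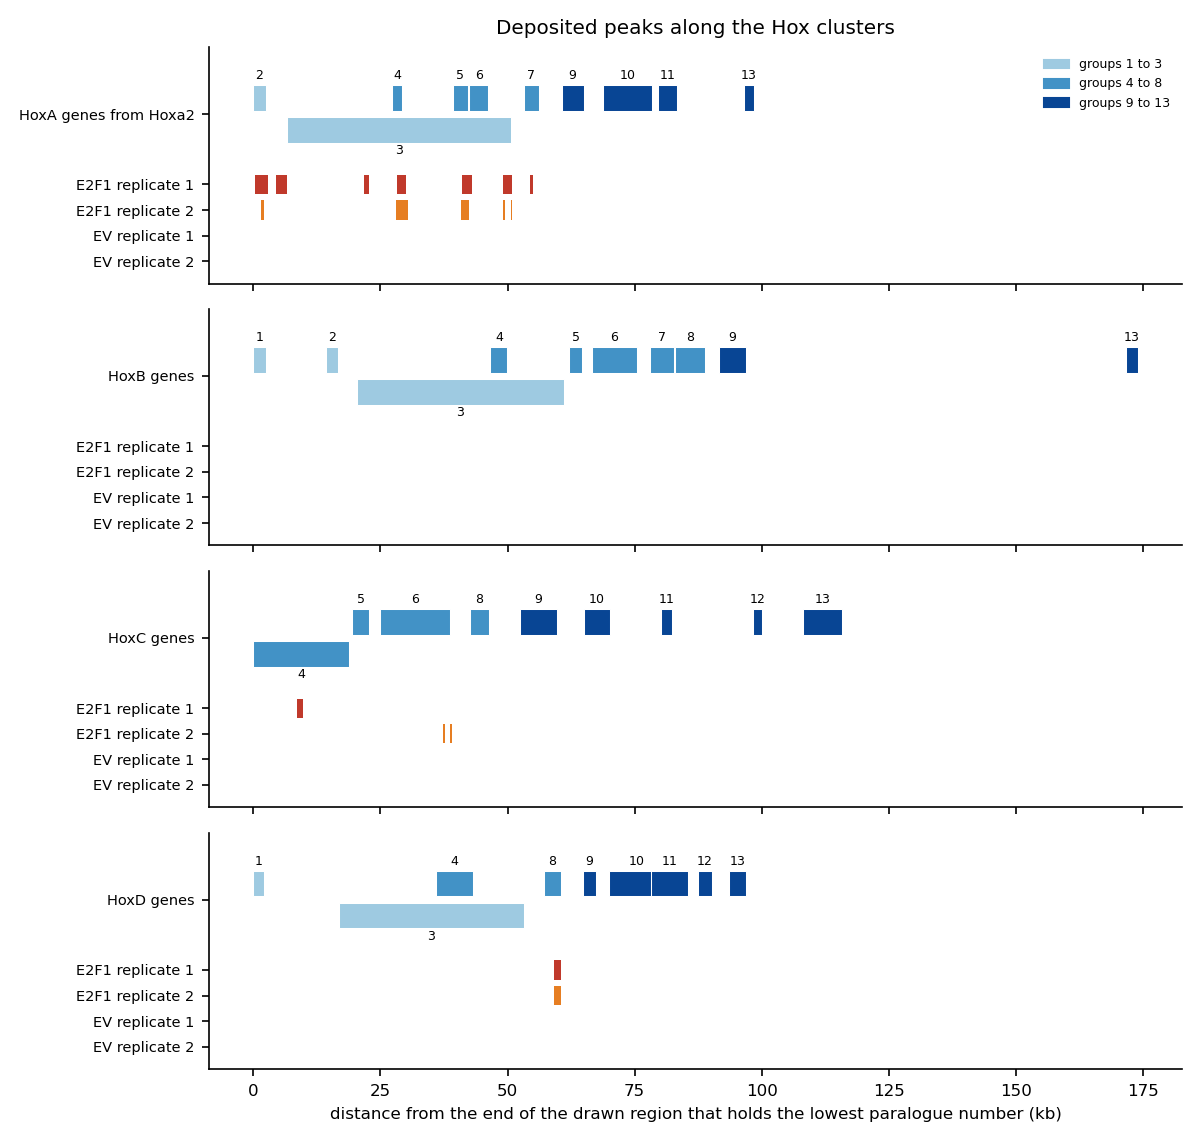
Deposited peaks of the 4 libraries (coloured bars) along the Hox clusters, HoxA being drawn from Hoxa2 on, with the genes above, coloured by paralogue group and numbered. The horizontal axis is the distance in kb from the end of the drawn region with the lowest group number. Peaks lie between Hoxa2 and Hoxa7, at Hoxc4 and Hoxc6 in 1 library each and at Hoxd8, and there are none at groups 9 to 13, in HoxB or in the EV libraries.

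Most of the peaks were in HoxA. HoxA held 8 peaks in E2F1 replicate 1 and 6 in replicate 2, a density of 7.58 and 5.69 peaks per 100 kb. HoxD held 1 in each library (1.03 per 100 kb in both) and HoxC 1 and 2 (0.864 and 1.73 per 100 kb). HoxB, the longest cluster at 173.9 kb, held none. All clusters together had 2.03 and 1.83 peaks per 100 kb. Over the annotated length of the chromosomes the same lists held 0.291 and 0.298 per 100 kb, a density at which a stretch as long as HoxB holds fewer than 1 peak on average. The clusters pack 39 protein-coding genes into 492.1 kb, where the table has 21900 over 2690.9 Mb. A density per 100 kb does not allow for genes lying closer together. By gene the Hox share was 17.9%, beside 34.4% of all protein-coding genes. Among genes of at most 10000 bp it was 18.2%, beside 20.4%, and among longer ones 1 of 6, beside 42.4%. The peaks covered 13.8% of HoxA in E2F1 replicate 1 and 5.84% in replicate 2. Around HoxB the nearest E2F1 peaks lay 128.8 kb beyond Hoxb13 in both libraries and at least 408.96 kb beyond Hoxb1.

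In each library most Hox peaks had a fold below the median of their list. The fold enrichment is the authors' own value, the read pileup over the local background at the summit, and is read within its list. Its median was 6.75 over the 10 Hox peaks of E2F1 replicate 1, against 9.19 over that whole list, and 6.29 over the 9 of replicate 2, against 11.3. In each library 7 Hox peaks lay below the median fold of the list, while a median leaves as many peaks of a list below it as above. By score 7 lay below the median in replicate 1 and 6 in replicate 2. The pileups behind the Hox peaks, solved from fold and p-value, ran from 21 to 77 reads in replicate 1 and from 22 to 60 in replicate 2. Their local backgrounds ran from 1.91 to 8.10 reads and from 1.86 to 5.81 reads.

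**Figure D2:**
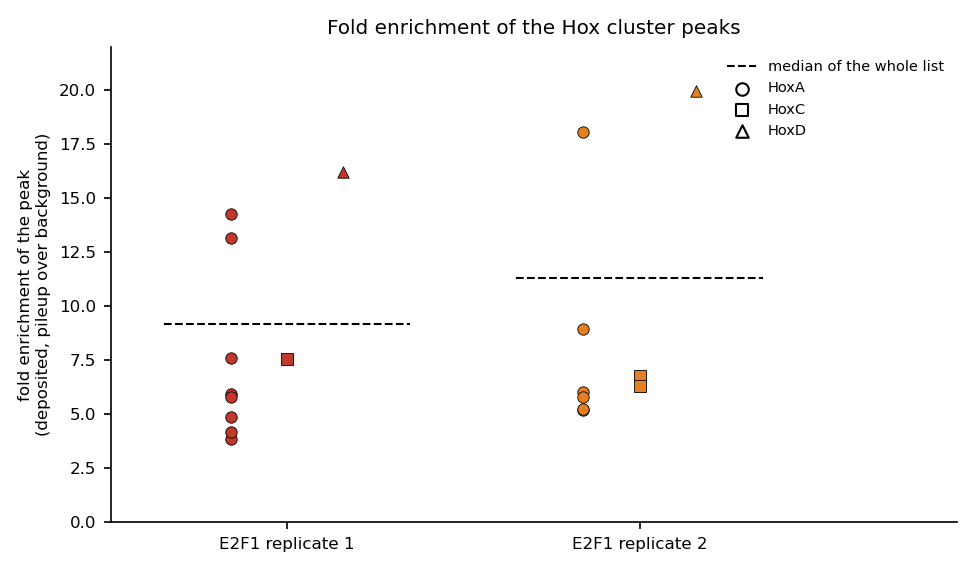
Fold enrichment (vertical axis, deposited ratio of pileup to background) of every Hox cluster peak in the 2 E2F1 libraries, with 1 symbol per peak, shaped by cluster. The dashed lines are the medians of the whole lists, 9.19 and 11.3. The Hoxd8 peak is the highest in both libraries and 7 peaks of each library lie below the line.

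The strongest Hox peak of both libraries was at Hoxd8, a central gene of HoxD. In E2F1 replicate 1 it spanned chr2:74704596-74706067 with a fold of 16.2 from a pileup of 77 reads over a background of 3.81, rank 1472 of 7836 by fold. In E2F1 replicate 2 it spanned chr2:74704528-74706043 with a fold of 19.9 from 56 reads over 1.86, rank 1816 of 8027. The summits lay inside the gene, 376 and 335 bp after its annotated start, and differed by little between the libraries. It was the only peak in HoxD: Hoxd9, the neighbour on one side, was 4388 and 4320 bp from it, and Hoxd3, the neighbour on the other, 5926 and 5950 bp. The same peaks covered an inner start of Gm38462, a non-coding gene on the opposite strand.

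Hoxa4, a central gene of HoxA, had the peak with the second highest fold. It spanned chr6:52190763-52192375 in E2F1 replicate 1, with a fold of 14.3 (53 reads over 2.78), and chr6:52190569-52192890 in replicate 2, with a fold of 18.1 (59 reads over 2.32). The summits lay 292 and 315 bp outside the upper boundary of Hoxa4. On the minus strand, on which the HoxA genes with a promoter entry lie, that is the side before a gene.

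Shared peaks at Hoxa2, Hoxa5 and the start of Hoxa3 were low in both libraries. At Hoxa2, which patterns the hindbrain and the second pharyngeal arch, the folds were 3.84 in E2F1 replicate 1 and 6.02 in replicate 2, with summits 408 and 602 bp after the annotated start. At Hoxa5, a gene needed in the developing lung and the neck, they were 4.18 and 5.80, with summits 579 bp after the start and 89 bp before it. Hoxa6 was counted through the Hoxa5 peak, which reaches the end of Hoxa6, and its own promoter was touched in neither library. At the annotated start of Hoxa3, needed for the thymus and the parathyroid, replicate 1 listed 1 peak at chr6:52211492-52213327 with a fold of 7.63. Replicate 2 listed 2 smaller ones within that interval, with folds of 5.19 and 5.26. The Hoxa3 record is 44009 bp long and encloses Hoxa4, Hoxa5 and Hoxa6, so it counted 5 and 4 peaks, some of them shared with those genes. The 7 genes with a peak in both libraries therefore rest on 6 peaks of E2F1 replicate 1 that a peak of replicate 2 overlaps.

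Peaks listed in 1 library only were all weak. E2F1 replicate 1 had 2 of them at or inside Hoxa3, at chr6:52166982-52169009 and chr6:52184191-52185221, with folds of 5.94 and 5.82, 1 inside Hoxa7 (fold 4.86) and 1 inside Hoxc4 (fold 7.57). Replicate 2 had 2 at Hoxc6, at chr15:102997718-102998104 and chr15:102999131-102999632, with folds of 6.78 and 6.29. No HoxC peak was listed in both libraries. Of the 10 Hox peaks of replicate 1, 6 were overlapped by replicate 2 (60%, Wilson 95% interval 31.3 to 83.2), beside 90.2% of the whole list and 80.6% of its peaks below the median score. Of the 9 of replicate 2, 7 were overlapped by replicate 1 (77.8%, 45.3 to 93.7), beside 88.1% and 76.7%. The intervals cover counting error only. Among the Hox peaks below the median score, 3 of 7 were overlapped in replicate 1 (42.9%, 15.8 to 75.0), beside the 80.6% of the list. In replicate 2 it was 4 of 6 (66.7%, 30 to 90.3), beside the 76.7%. Most of these peaks are neighbours in HoxA, which the intervals treat as independent. Those of replicate 1 had scores of 72 to 175, where the list median was 293, and were not matched to list peaks of like score. No difference is read from these intervals. The shares depend on the rule: with 50% reciprocal overlap they were 30% and 33.3%, beside 82.0% and 80.1% of the whole lists, and with centres within 200 bp 30% and 33.3%, beside 71.1% and 69.4%.

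Only 3 peaks stood above the median score of both lists, those of Hoxd8 and Hoxa4 among them. Through them 4 of the 39 Hox genes had such a peak in both E2F1 libraries, beside 17.1% of all protein-coding genes, whatever their length. Hoxa3 is among the 4, counted through the peak at Hoxa4, which its long record encloses. At the distance of 1000 bp no gene was near the limit: the counted genes were all touched by a peak, and the nearest of the others were Hoxa7, 2296 bp from a peak of E2F1 replicate 2, and Hoxc8, 3443 bp from one of the same library. On the p-value Hoxa2 was near the limit: its peak in E2F1 replicate 1 had a −log10 p of 10.0046, where the lowest of that list was 10.0001.

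The RefSeq promoter table (GRCm38.p6), which gives the 250 bases before and the 50 after an annotated start, held 24 promoters of 22 Hox genes, and among those without an entry were Hoxa4, Hoxb2, Hoxb3, Hoxb5, Hoxb6, Hoxb7, Hoxb9, Hoxb13, Hoxc5, Hoxc6, Hoxc8, Hoxc9, Hoxc10, Hoxc11, Hoxc12 and Hoxc13. Peaks of both E2F1 libraries touched 3 of them (12.5%), those of Hoxa3, Hoxa5 and Hoxd8, and the Hoxa2 promoter was touched in replicate 1 alone. Over all 21263 promoters of protein-coding genes the share was 29.4%. Within 1000 bp of a start, 4 of the 22 genes (18.2%) had a peak in both libraries, beside 33.0% of 17492 genes. The CpG pairs of a promoter, the C followed by G that is rare in the genome outside CpG islands, went with the share touched: over all promoters that share was 1.52% with at most 9 pairs, 28.0% with 10 to 19, 54.7% with 20 to 29 and 76.0% with 30 or more. Among the Hox promoters 1 of 7, 0 of 6, 2 of 9 and 0 of 2 were touched in these classes. Of 11 Hox promoters with at least 20 CpG pairs 2 were touched, where 63.8% of all promoters that rich were.

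Sequences before some of the starts are given as examples. The 250 bases are given 5′ to 3′ on the strand of the gene, with CpG pairs in capitals. They are shown because the first 3 promoters are touched by a peak in both E2F1 libraries, and the last 2, from posterior HoxA genes, by none. They lie at chr2:74704365-74704614 (Hoxd8, plus strand), chr6:52213068-52213317 (Hoxa3), chr6:52204588-52204837 (Hoxa5), chr6:52260881-52261130 (Hoxa13) and chr6:52227371-52227620 (Hoxa9), the HoxA genes on the minus strand.
Hoxd8: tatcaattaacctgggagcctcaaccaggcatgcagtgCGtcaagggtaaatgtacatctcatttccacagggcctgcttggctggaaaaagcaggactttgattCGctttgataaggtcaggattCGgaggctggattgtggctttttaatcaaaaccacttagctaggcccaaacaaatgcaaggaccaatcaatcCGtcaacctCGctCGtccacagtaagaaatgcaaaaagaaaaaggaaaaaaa
Hoxa3: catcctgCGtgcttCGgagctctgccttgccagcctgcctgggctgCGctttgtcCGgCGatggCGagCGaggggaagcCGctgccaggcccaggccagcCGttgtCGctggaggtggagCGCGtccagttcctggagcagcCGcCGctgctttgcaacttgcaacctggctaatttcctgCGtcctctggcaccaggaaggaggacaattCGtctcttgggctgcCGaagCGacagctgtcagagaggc
Hoxa5: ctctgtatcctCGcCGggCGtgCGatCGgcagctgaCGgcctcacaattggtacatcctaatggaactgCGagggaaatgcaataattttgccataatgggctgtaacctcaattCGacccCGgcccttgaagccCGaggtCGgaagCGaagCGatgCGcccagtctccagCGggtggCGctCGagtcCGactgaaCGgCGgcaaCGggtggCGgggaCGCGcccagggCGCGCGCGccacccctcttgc
Hoxa13: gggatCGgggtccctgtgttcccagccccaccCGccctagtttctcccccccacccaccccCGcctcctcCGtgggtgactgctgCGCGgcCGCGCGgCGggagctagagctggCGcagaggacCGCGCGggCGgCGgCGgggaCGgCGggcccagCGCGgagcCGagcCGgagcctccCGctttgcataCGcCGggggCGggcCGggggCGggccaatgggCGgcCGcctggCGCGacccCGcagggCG
Hoxa9: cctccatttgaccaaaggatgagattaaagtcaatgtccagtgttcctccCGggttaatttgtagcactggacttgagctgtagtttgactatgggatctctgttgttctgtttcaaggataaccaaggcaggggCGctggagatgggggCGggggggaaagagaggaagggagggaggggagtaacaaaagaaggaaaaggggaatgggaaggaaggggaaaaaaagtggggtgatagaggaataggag

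The Hoxd8 stretch, beside the strongest Hox peak, holds 6 CpG pairs, while that of Hoxa13, with no peak, holds 35. The Hoxd8 peaks start at 74704596 and 74704528 and the stretch ends at 74704614, so most of it lies outside them. Hoxa3 has 18, Hoxa5 28 and Hoxa9 3. In the full 300 bases Hoxa13 has 45 pairs and Hoxd13 37, the highest of the Hox promoters, and neither had a peak. Inside the Hoxd8 peak the sequence is richer: the promoter of the inner Gm38462 start, which both E2F1 libraries touched, holds 49.

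The preferred site of E2F factors was searched as the 8-letter words TTTCCCGC, TTTCGCGC, TTTGCCGC and TTTGGCGC on both strands. None of the 24 Hox promoters held one, while 607 of all 21263 promoters did (2.85%), so that 0 of 24 is close to the share of all promoters. Over all promoters, 61.4% of those with such a word were touched in both E2F1 libraries and 28.5% of those without. With the first T left off, giving 7-letter words that include the longer ones, 1 Hox promoter had a match, that of Hoxa5 with GCGGCAA starting 52 bases before the start, against 12.1% of all promoters. The 6-letter cores GGCGGG and GGCGCG, which can overlap these words, were in 14 Hox promoters (58.3%) and in 51.3% of all. A match is a string of letters and not a binding site.

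**Figure D3:**
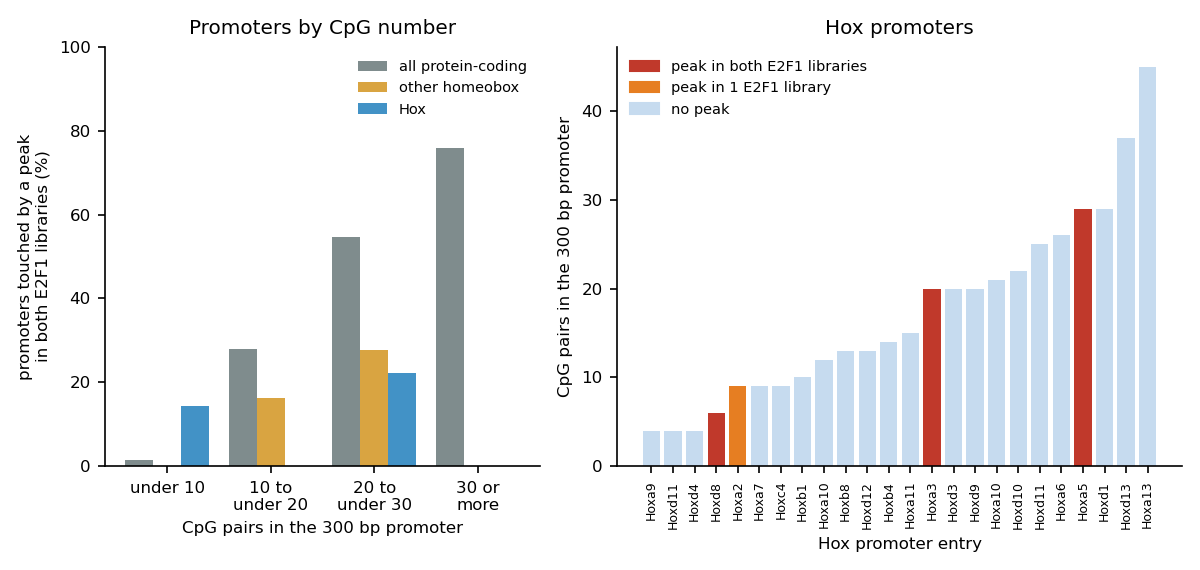
Left, share of promoters touched by a peak in both E2F1 libraries (vertical axis, percent) by the number of CpG pairs in the 300 bp promoter, for all 21263 protein-coding promoters, 66 promoters of other homeobox genes and 24 Hox promoters. Right, CpG pairs of each Hox promoter, coloured by whether a peak touches it. The share over all promoters rises to 76.0% in the richest class, where none of 2 Hox and none of 10 other homeobox promoters was touched.

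Homeobox genes outside the clusters gave a similar share to the Hox genes. Of 83 such genes, developmental regulators such as the Dlx, Irx, Nkx and Lhx families, 15 (18.1%) had a peak in both E2F1 libraries, beside 34.4% of all protein-coding genes. Among the 52 of at most 10000 bp the share was 19.2%, near the 20.4% of all genes that short. Among the longer ones it was 5 of 31 (16.1%), beside 42.4%. The highest were Dlx1 (folds 11.3 and 31.2 in E2F1 replicates 1 and 2), Dlx2 (14.1 and 22.9) and Irx5 (11.6 and 25.0). Of their promoters with at least 20 CpG pairs, 5 of 28 (17.9%) were touched, beside 63.8% of all promoters that rich. Of the 10 with 30 or more none was, beside 76.0%.

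Genes known to act on or with the Hox clusters are given next, with no test of a difference between lists. Of 30 Polycomb group genes 27 (90%) had a peak in both E2F1 libraries, led by Ezh2 (folds 34.7 and 81.3) and Eed (44.6 and 70.7), the catalytic and a core subunit of the complex that methylates histone H3, and by Phc1 (38.6 and 61.6). Of 16 Trithorax group genes 15 (93.8%) did, led by Dpy30 (18.0 and 35.7), Men1 (28.7 and 22.1) and Kmt2c (24.2 and 21.3). Most genes of both lists are long, and among protein-coding genes over 10000 bp the background was 42.4%. At that length 21 of 23 Polycomb group genes and 13 of 14 Trithorax group genes had a peak in both. Of the 9 genes for TALE homeodomain proteins, which bind DNA as partners of Hox proteins, 5 did (55.6%, beside 34.4%). Of the 8 over 10000 bp 4 did (50%), near the background of 42.4%. The highest folds were at Pknox1 (13.4 and 24.2), Pbx3 (11.5 and 22.7) and Meis2 (11.8 and 19.2). Of 16 retinoic acid pathway genes 6 (37.5%) had a peak in both, near the background of 34.4%, with the highest folds at Cyp26b1 (22.9 and 27.8), which breaks retinoic acid down, and at the receptor genes Rxra (28.0 and 16.2) and Rarg (18.3 and 10.1).

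**Figure D4:**
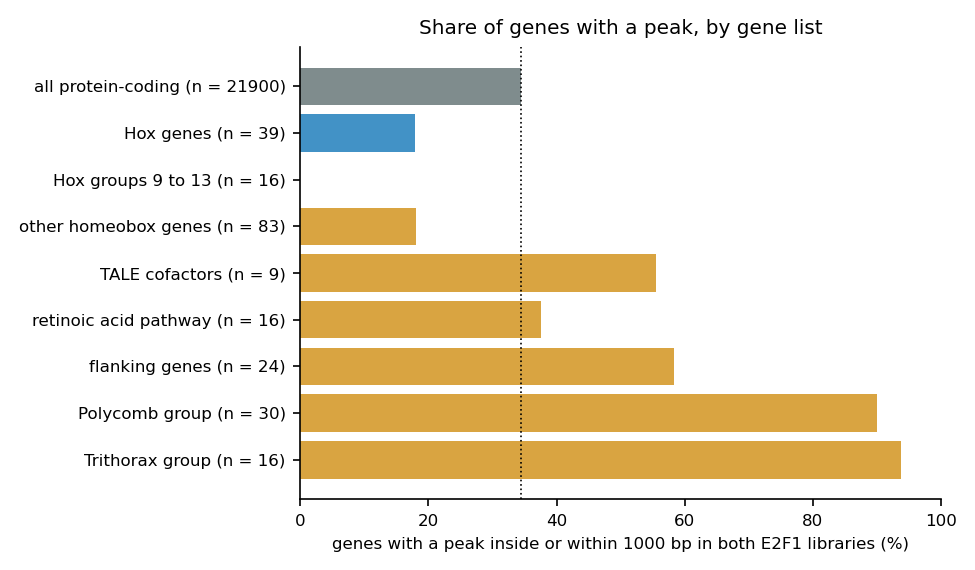
Share of genes with a peak inside or within 1000 bp in both E2F1 libraries (horizontal axis, percent) for all protein-coding genes (grey, dotted line at 34.4%), Hox genes and those of groups 9 to 13 (blue) and the other gene lists (yellow), with the number of genes in brackets. Hox genes stand at 17.9%, other homeobox genes at 18.1% and Polycomb group genes at 90%. The dotted line takes in genes of all lengths, and the lists differ in gene length.

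The 24 flanking genes are the 3 nearest protein-coding genes beyond each end of each cluster. Of them 14 (58.3%) had a peak in both E2F1 libraries, beside 34.4% of all protein-coding genes. Among the flanking genes over 10000 bp it was 11 of 18 (61.1%), beside 42.4%. Members of the same gene families recur there, with and without peaks: Atp5g1, Skap1, Calcoco1 and Calcoco2, chosen after their values were seen, had none in either E2F1 library. Of the heterochromatin protein genes, Cbx3, 671.7 kb from HoxA, had folds of 23.5 and 71.0. Cbx1, on the side of HoxB, had 19.0 and 23.4. Cbx5, 154.7 kb from HoxC, had 24.9 and 35.3, through a peak that Hnrnpa1 shares. Hnrnpa3, an RNA-binding protein gene 894.0 kb from HoxD, had 32.5 and 79.1. Atp5g2 had 25.9 and 23.4, and Atp5g3 8.01 and 4.75, both genes of the mitochondrial ATP synthase. Lower values were found at Skap2 (9.64 and 13.2), Snx10 (8.05 and 5.22), Tax1bp1 (5.33 and 5.95), Snx11 (5.14 and 6.73), Atf7 (8.55 and 9.21), Mtx2 (10.3 and 7.20) and Gm50595 (6.32 and 8.38). At HoxB 2 of 6 flanking genes had a peak in both (33.3%), near the 34.4% of all protein-coding genes. They were Snx11 at 399.3 kb and Cbx1 at 420.4 kb from the cluster. At each of the other clusters it was 4 of 6 (66.7%), and with 6 genes a cluster no difference is read. No flanking gene had a peak in an EV library.

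Of the 32 non-coding genes inside the clusters 5 had a peak in both E2F1 libraries (15.6%). The list holds 25 lncRNA genes, 6 microRNA genes and 1 pseudogene, and the 5 are all lncRNA genes (20% of 25), beside 9.11% of the 12731 lncRNA genes of the table. Among them were Hoxaas3 and LOC115490409 in HoxA and Gm38462 in HoxD. These 3 share their peaks with Hoxa3 or Hoxa5, Hoxa4 and Hoxd8, so they are not further sites. These genes, and the microRNA genes and Hotair, were chosen for naming after their values were seen. The microRNA genes of the clusters, Mir10a, Mir10b, Mir196a-1, Mir196a-2, Mir196b and Mir615, had no peak, beside 6.35% of 1228 microRNA genes with one in both E2F1 libraries. Hotair, the lncRNA between Hoxc11 and Hoxc12, had none either.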

How the data were processed

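E2F1 ChIP-seq peak lists of 4 libraries (E2F1 and EV, 2 each) were used. 2 input DNA samples of EV cells were not analysed here. Per the submitters' processing notes the build is mm10 and the tools are FastQC, Trimmomatic, Bowtie2, MACS2 and ChIPseeker, with no versions. The antibody, the control and the filter are not given in the sources used here. Each list was deposited per library in a layout of 10 columns. The deposited score is a peak score, the whole part of 10 times the −log10 q-value in 99.8 to 100% of the peaks of a library. The fold enrichment is the authors' ratio of pileup to background, and the −log10 p and −log10 q values are the deposited ones. Pileup and background were solved from fold and p, taking fold as pileup plus 1 over background plus 1 and p from a Poisson tail, with the pileup a whole number, within 5% of a step, for 99.99 to 100% of the peaks tried in a library. The number of reads per library is unknown here. The values of 1 Hox gene are not reported here.

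Gene positions and promoters came from RefSeq (GRCm38.p6, the same build as mm10), without coordinates converted. Promoter entries were matched by symbol for 22 of 39 Hox genes. Peaks were joined to genes in Python 3.11.15 with pandas 2.3.3 and scipy 1.17.1, after tests on simulated data. A peak touching a gene or 1000 bp around it by 1 bp counted. Hox genes with a peak and every flanking gene with peaks in both E2F1 libraries are named, and of other lists the 3 members with the highest mean fold. Two-sided exact permutation compared peak numbers. The spread between libraries may be technical. The p-values stand at the lowest value that 2 libraries a group allow, so they do not measure that spread. The members and lists were chosen with earlier results of these data known. The classes of CpG number, the split by gene length and the printed promoters were chosen after the values were seen.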

Additional observations from a re-analysis of the deposited data

How the results depend on the processing

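Over 33 alternatives to 7 results, 22 were counted as the same, 11 as moved and 0 as reversed. The same meant within a fixed ratio for gene counts, and within the SD between the E2F1 libraries for folds. For overlap shares it meant within the Wilson interval, and for motif counts an equal number. Only the difference in peak number could reverse. With 0 Hox peaks in both EV libraries it could not fall below 0, so its keeping direction says little. The number of Hox genes with a peak in both E2F1 libraries, 7, was the same 7 genes at distances of 0 and 500 bp, with summits only, with gene boundaries only and with overlapping peaks required, the last 2 chosen after the data were seen. It was 8 at 2500 bp, and 8 to 9 from the list of 1 library. Among peaks that reach the median score of their list it was 4, the median folds were 14.3 and 18.1, higher by construction, and 100% of the remaining Hox peaks, 3 in each library, overlapped. The overlap shares fell to 30% and 33.3% both with 50% reciprocal overlap and with centres within 200 bp, and the cause was not tested. Hox promoters with a motif went from 0 to 1 with 7-letter words and 14 with 6-letter cores. The difference in peak number was 3 at the stricter score and 9 to 10 without 1 library. With the replicate block it was 9.5 (exact sign-flip test, p = 0.5, no lower p being possible for 2 pairs). Since both EV libraries have 0 Hox peaks, these values cannot tell if equal numbers mark paired samples. The threshold on p limits all counts to peaks with a −log10 p-value above 10.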

Other observations

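At the 6 Hox peaks of E2F1 replicate 1 that replicate 2 overlaps, the fold of replicate 2 over that of replicate 1 had a median of 1.25, beside 1.27 over all 7070 overlapped peaks. It was below 1 at the start of Hoxa3 (0.689) and highest at Hoxa2 (1.57).

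The Hoxa2 peak of E2F1 replicate 1 measured 2566 bp (percentile 97.3 of its list), against 638 bp in replicate 2. The median width of the Hox peaks was 1725 bp in replicate 1 and 638 bp in replicate 2, beside 938 and 814 bp in the whole lists. The Hoxa2 peak of replicate 1 had a pileup of 28 reads over a background of 6.56.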
